A study of Mus musculus with 2 samples.

Results

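The genes described here are 10 genes of the major histocompatibility complex (MHC) class I pathway: B2m, H2-K1, H2-D1, Tap1, Tap2, Tapbp, Psmb8, Psmb9, Psmb10 and Psme1. They were chosen by name, as the non-control probes to which the array files give one of these gene names, out of 28783 gene names on the array. The choice of names was made with earlier results of these data known. The 10 genes had 17 probes, of which 16 were well above background on both arrays, so every one of the 10 genes was measured. RNA came from RAW 264.7, a macrophage-like line from a tumour of a BALB/c mouse, which carries the d haplotype of the mouse MHC. The control group was 1 array of cells kept at ground level, and the RCCS group was 1 array of cells loaded for 24 h into a rotary cell culture system, a rotating vessel used to model microgravity. The cells received RANKL, the cytokine that drives macrophages towards osteoclasts, for 24 h at a dose of 80 ng/ml. Both samples carry one and the same protocol, from which it cannot be told whether RANKL was also added to the control cells. Both groups share the line and the medium with 10% serum, and no label speaks of pooled or repeated cultures.

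MHC class I molecules display short peptides from inside the cell to CD8 T cells. Proteins are cut by the proteasome, the peptides are pumped into the endoplasmic reticulum by the transporter TAP, and the loading complex built around tapasin places them on a heavy chain paired with beta-2 microglobulin. In macrophages interferons induce most of these genes and exchange the catalytic subunits of the proteasome for those of the immunoproteasome, whose cuts favour peptides that class I molecules bind.

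All 10 genes had lower signals on the RCCS array than on the control array. Their median log2 ratio, RCCS minus control, was -1.28 (2.42-fold lower), and -1.15 relative to the median of all 16023 measured genes, which was itself -0.13. At least 2-fold lower were 6 of the 10: Tapbp, Psmb8, Tap1, Psmb10, Psmb9 and Psme1. Of all measured genes 3.76% were at least 2-fold lower and 3.88% at least 2-fold higher, and 61.8% had a log2 ratio below 0. Counted by probe, 16 of 16 measured probes were below 0, against 60.7% of all measured probes, and 10 of the 16 were at least 2-fold lower, against 4.11%. Because the genes were chosen with earlier results of these data known, the shares describe them and cannot test an excess. The share below 0 was higher among bright genes. It was 84.3% at control signals from 10000 to 50000, where 5 of the 10 genes lie, and 90.7% at 50000 or more, where 3 lie. Signals are the processed intensities of the scanner software, and each ratio was taken after dividing an array by its own 75th percentile, 849 (control) and 966 (RCCS). With 1 array per group there is no test and no error between cultures. The ± values are 95% half-widths from the spot error that the scanner software assigns, and they cover neither cultures nor RNA extraction nor labelling.

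**Figure D1:**
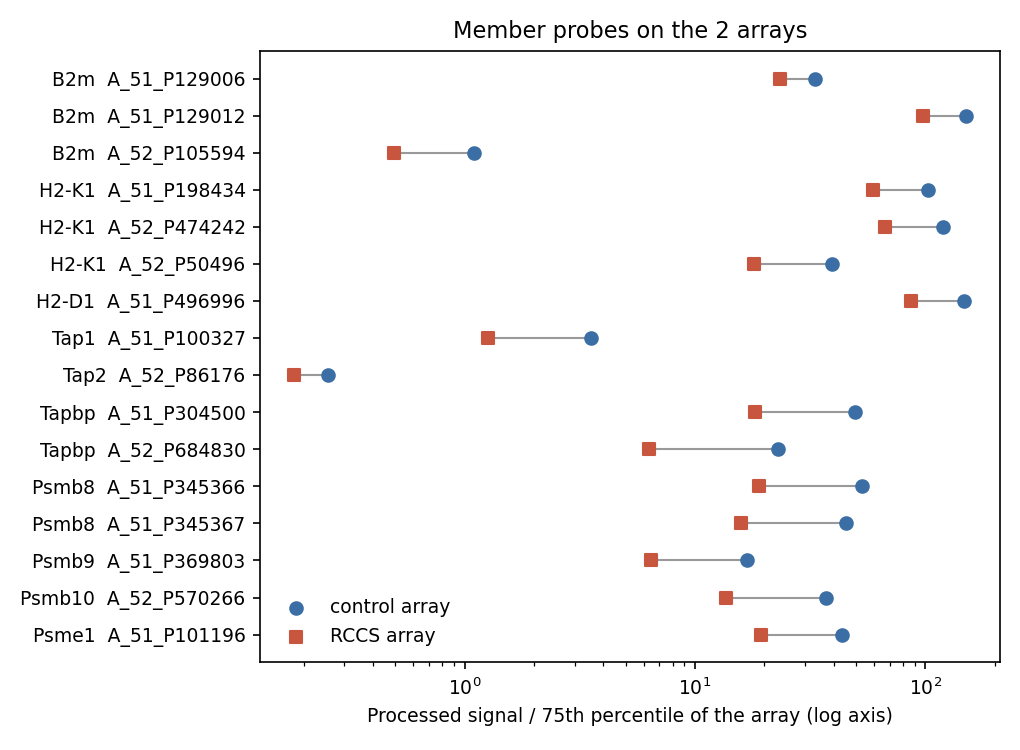
Processed signal divided by the array's 75th percentile (log axis) for the 16 measured probes of the 10 genes, 1 row per probe, with the control array as a circle and the RCCS array as a square. The square lies left of the circle in every row, and the gap is smallest for Tap2 and for the B2m probe printed 10 times.

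The arrays lay on 1 slide and differed in overall brightness by the factor just given. The cells' identity was checked on markers: 8 of 8 macrophage markers on the array were measured, with signals from 1135 to 361675 (control) and from 4414 to 424976 (RCCS). Among them Itgam, an integrin chain, was at 1.98 and 2.02 on its 2 probes (1135 to 5153) and Spi1, a myeloid transcription factor, at -0.72 ± 0.40 (23233 to 16063), and the other 6 lay between 0.0048 and 0.39; their part in the results was not tested. Of 19 markers of T, B, NK, fibroblast and epithelial cells, 8 were measured. The summed signal of the 19 was 872 (control) and 1325 (RCCS). Dcn, a fibroblast gene, made most of that gap, with 15.2 (control, not well above background) and 462 (RCCS), at least 16.8-fold higher; the other 18 summed to 857 and 863 and none exceeded 149. The fibroblast collagen gene Col1a1 gave 13.0 and 34.3, and Pdgfrb 19.2 and 20.6, of which the RCCS signal of Col1a1 alone was well above background. Col1a2, the one fibroblast marker measured on both arrays, was at -0.55 ± 0.46 (68.8 to 57.1). The part of such cells in the differences below was not tested. Brighter genes as a whole lay somewhat lower on the RCCS array. The median log2 ratio was -0.41 over 365 genes with a control signal of 50000 or more, of which 4.93% were at least 2-fold lower, and -0.36 over 1347 genes from 10000 to 50000, of which 6.09% were; 3 and 5 of the 10 genes lie in these ranges.

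The molecules that reach the cell surface differed least apart from Tap2. B2m encodes beta-2 microglobulin, the light chain shared by all class I molecules, and H2-K1 and H2-D1 encode the classical heavy chains. B2m had a log2 ratio of -0.76 ± 0.23 over 3 probes, H2-K1 -0.91 ± 0.23 over 3 probes and H2-D1 -0.77 ± 0.40 on 1 probe, and 0 of these 3 genes were 2-fold lower. The 3 genes lay within 0.16 of each other. H2-K1 minus B2m was -0.16 (95% interval from spot error -0.48 to 0.17) and H2-D1 minus B2m -0.01 (-0.47 to 0.45), so these probes do not separate the chains from their light chain. Tapbp minus B2m was -0.90 (-1.26 to -0.53), Psmb8 minus B2m -0.74 (-1.10 to -0.37) and Psmb8 minus H2-K1 -0.58 (-0.95 to -0.22), so the surface chains lay nearer to 0 than tapasin and the catalytic subunit by more than the spot error.

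A B2m probe and an H2-K1 probe were each printed 10 times, which gives a measured spread between spots. The B2m spots read from 26241 to 29675 on the control array (median 28100) and from 22212 to 23510 on the RCCS array (median 22527). Log2 ratios of these B2m spots ran from -0.55 to -0.43 with a mean of -0.49 and an SD of 0.04 over 10 spots. All 10 come from 1 hybridisation per group, so their spread covers neither cultures nor labelling. The H2-K1 spots read from 84103 to 90151 on the control array (median 88257) and from 55609 to 59373 on the RCCS array (median 57428). Their log2 ratios ran from -0.83 to -0.77 with a mean of -0.80 and an SD of 0.02. The spread between spots of 1 probe does not cover differences between probes, so it does not order the 2 genes. The probes of B2m ran from -1.15 to -0.50 and those of H2-K1 from -1.12 to -0.80, and the gene means above were not apart.

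The probes of 1 gene did not all give the same ratio. The second B2m mRNA probe went from 127654 to 94526 (log2 ratio -0.62). The third probe under that name was designed on a cDNA that the array file calls unclassifiable, and it went from 935 to 477 (-1.15). Without it B2m came to -0.56, a choice made after seeing the data. Of the other H2-K1 probes, one went from 100878 to 64659 (-0.83) and one from 33279 to 17420 (-1.12). The H2-D1 mRNA probe went from 125582 to 83854. A second probe named H2-D1 was designed on a thymus-leukemia antigen mRNA, a different class I gene, and stayed at background on both arrays (5.15 and 4.63), so it entered no mean. Classical and Q-region class I genes are near-identical over long stretches, so cross-hybridisation between them cannot be told apart here.

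**Figure D2:**
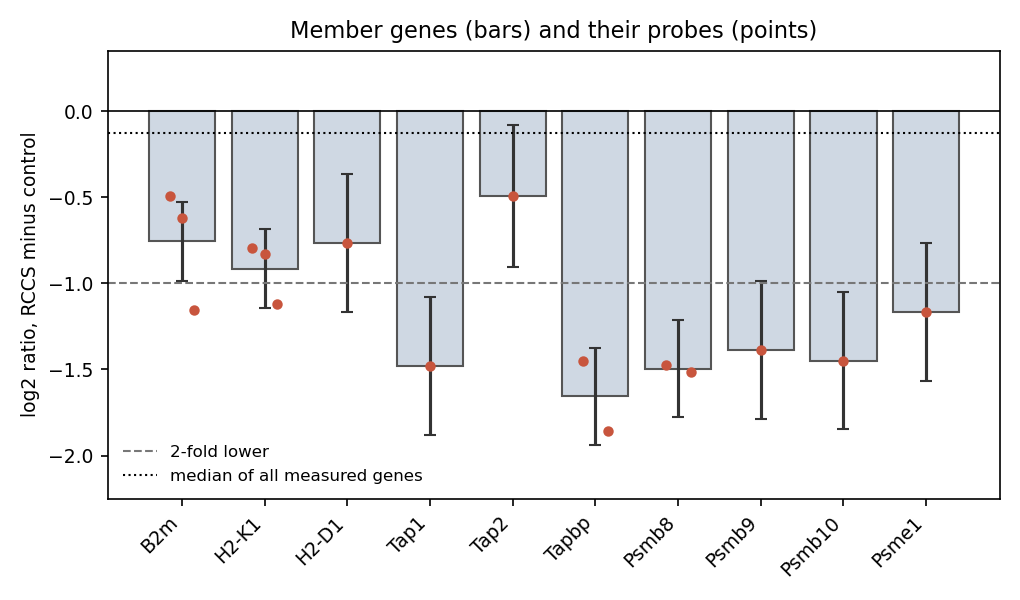
Log2 ratio, RCCS minus control, of the 10 genes (bars, mean of the measured probes) with the 95% half-width from spot error, the single probes as points, a dashed line at 2-fold lower and a dotted line at the median of all measured genes. The bars of Tapbp, Psmb8, Tap1, Psmb10, Psmb9 and Psme1 pass the dashed line, and those of H2-K1, H2-D1, B2m and Tap2 do not.

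The upstream sequences of the chains are shown because these 3 genes, whose products form 1 molecule, had ratios within 0.16 of each other. They are the 250 bases before the gene start in RefSeq (GRCm38.p6), on the gene's strand. Here and below the sequences are those of the reference genome and not of this line, whose MHC of the d haplotype may differ. Capitals mark matches on either strand to AANNGAAA (a pair of interferon regulatory factor half-sites), TTCNNNGAA (gamma-activated site), GGGNNTTCC (NF-kappaB), CCAAT and TGACG (the core of a cyclic AMP response element). The H2-K1 window lies at chr17:34000348-34000597 on the minus strand, H2-D1 at chr17:35262844-35263093 on the plus strand and B2m at chr2:122147437-122147686 on the plus strand.
H2-K1: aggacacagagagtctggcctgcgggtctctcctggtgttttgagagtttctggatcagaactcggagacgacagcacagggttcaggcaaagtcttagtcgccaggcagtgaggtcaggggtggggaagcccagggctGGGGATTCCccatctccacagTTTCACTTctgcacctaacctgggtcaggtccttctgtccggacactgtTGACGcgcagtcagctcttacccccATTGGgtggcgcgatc
H2-D1: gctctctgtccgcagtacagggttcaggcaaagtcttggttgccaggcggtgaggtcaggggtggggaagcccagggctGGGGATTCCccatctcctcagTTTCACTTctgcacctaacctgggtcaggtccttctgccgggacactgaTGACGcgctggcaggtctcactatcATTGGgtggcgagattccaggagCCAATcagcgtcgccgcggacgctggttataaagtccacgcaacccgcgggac
B2m: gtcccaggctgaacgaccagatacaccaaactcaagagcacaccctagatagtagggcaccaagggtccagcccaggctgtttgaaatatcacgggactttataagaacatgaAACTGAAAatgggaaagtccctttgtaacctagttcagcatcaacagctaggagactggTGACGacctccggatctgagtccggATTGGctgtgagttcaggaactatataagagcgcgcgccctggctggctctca
The H2-K1 and H2-D1 windows hold GGGNNTTCC, AANNGAAA, TGACG and CCAAT in the same order, and from the start of one match to the next the steps were 21, 49 and 25 bases in both. The H2-D1 window has a further CCAAT closer to the gene, and so does a second H2-K1 window of the RefSeq table, chr17:34000334-34000583, which is not shown. The B2m window holds AANNGAAA, TGACG and CCAAT but no match to GGGNNTTCC. Over all 32851 windows of this length, AANNGAAA was found in 21.3%, TTCNNNGAA in 7.02%, GGGNNTTCC in 4.98%, CCAAT in 33.8% and TGACG in 17.8%. No match overlapped another of a different motif. The letters AANNGAAA were reached after a longer form had been searched in these windows and shortened in 2 steps, since it missed the B2m match, so this motif was fitted to the members. A match is a run of letters, and no binding was measured here.

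The peptide transporter and tapasin held both the lowest and the highest ratio of the 10 genes. Tapbp encodes tapasin, which ties the transporter to the waiting class I molecule, and it was 3.15-fold lower on the RCCS array, at -1.66 ± 0.28. Its 2 probes, one for each transcript variant, went from 42226 to 17530 (log2 ratio -1.45) and from 19423 to 6094 (-1.86). Only 0.824% of measured genes had a ratio as low. Tap1, which encodes a TAP subunit, went from 3001 to 1222, 2.79-fold lower at -1.48 ± 0.40.

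Tap2 encodes the other TAP subunit and stood nearest to 0. Its single probe was dim, at 217 (control) and 175 (RCCS), with a log2 ratio of -0.49 ± 0.41 (1.41-fold lower). Of all measured genes 19.95% had a ratio as low. Tap1 minus Tap2 was -0.99, with an interval from spot error of -1.56 to -0.41. The subunits of 1 transporter thus differed on these arrays by more than the spot error, with 1 probe each. The tapasin-related gene Tapbpl, whose product edits peptides outside the loading complex, was at -0.09 ± 0.40 (644 and 689), and Tapbp minus Tapbpl was -1.57 (-2.06 to -1.08).

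Tap1 and Psmb9 are neighbours on chromosome 17 that start in opposite directions from 1 stretch of 225 bases, and their ratios lay 0.10 apart (-1.48 and -1.39, Tap1 minus Psmb9 interval -0.66 to 0.47). That stretch, chr17:34187331-34187555 (RefSeq, GRCm38.p6), is shown in the direction of Tap1 because a single sequence lies before both genes; Psmb9 starts beyond its first base. The Tapbp window, chr17:33919228-33919477 on the plus strand, is shown because Tapbp had the lowest ratio of the 10. Capitals are as above.
between Psmb9 and Tap1: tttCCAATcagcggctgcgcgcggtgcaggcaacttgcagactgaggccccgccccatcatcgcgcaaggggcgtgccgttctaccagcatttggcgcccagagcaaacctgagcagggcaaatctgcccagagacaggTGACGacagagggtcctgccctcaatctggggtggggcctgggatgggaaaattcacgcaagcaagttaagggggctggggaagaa
Tapbp: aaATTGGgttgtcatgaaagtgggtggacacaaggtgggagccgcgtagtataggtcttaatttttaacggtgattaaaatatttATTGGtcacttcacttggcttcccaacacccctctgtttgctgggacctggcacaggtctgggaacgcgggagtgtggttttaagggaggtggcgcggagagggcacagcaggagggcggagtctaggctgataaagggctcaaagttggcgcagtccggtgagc
The shared stretch has 61.3% G and C and holds 1 CCAAT, which begins at base 4 from the Psmb9 side, and 1 TGACG, which begins at base 140. The Tapbp window holds 2 matches to CCAAT, both on the other strand, and none to the other 4 motifs. No window was found for Tap2.

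The ratios of the immunoproteasome subunits lay close together. Psmb8, Psmb9 and Psmb10 encode the interferon-inducible catalytic subunits that replace Psmb5, Psmb6 and Psmb7 in the core of the proteasome. Psmb8 was 2.82-fold lower on the RCCS array at -1.49 ± 0.28. Its 2 probes went from 45055 to 18403 (-1.48) and from 38465 to 15330 (-1.51). Psmb10, the subunit of trypsin-like cutting, went from 31553 to 13147, 2.73-fold lower at -1.45 ± 0.40. Psmb9 went from 14268 to 6206, 2.61-fold lower at -1.39 ± 0.40. The 3 ratios lay within 0.11 of each other, less than the half-width of any of them. The spot-error interval of Psmb9 just reaches the 2-fold line, and those of Psmb8 and Psmb10 do not.

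The constitutive counterparts lay near the other subunits of the proteasome core. Psmb5 was at -0.33 ± 0.40 (from 35867 to 32499), Psmb6 at -0.26 ± 0.40 (53659 to 50970) and Psmb7 at -0.43 ± 0.40 (29500 to 24947). Psmb8 minus Psmb5 was -1.17 (interval -1.66 to -0.68), Psmb9 minus Psmb6 -1.13 (-1.69 to -0.56) and Psmb10 minus Psmb7 -1.02 (-1.59 to -0.46). The constitutive values themselves rest on the scaling: Psmb5 and Psmb6 came to 0.01 and 0.10 at their highest among the alternatives. Each of the 3 intervals lies below 0, and over the 11 alternative ways of processing the 3 differences stayed between -1.23 and -1.02. The 11 subunits common to both kinds of core had a median of -0.37, with 11 of 11 below 0 and 0 at least 2-fold lower. Of all genes with control signals from 10000 to 50000 and of 50000 or more, 84.3% and 90.7% were below 0. Under other scalings some of the 11 subunits came above 0, such as Psma1 at 0.26. Their median stayed below 0 in all 12 ways of processing. Among them Psma3 (-0.52), Psmb3 (-0.49) and Psma7 (-0.46) were lowest. Pomp, the chaperone that assembles the core, was at -0.36 ± 0.40.

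Psme1 encodes the alpha subunit of the interferon-inducible cap that opens the proteasome. It went from 36811 to 18629, 2.25-fold lower at -1.17 ± 0.40, and its spot-error interval crosses the 2-fold line. Psme3, which forms a nuclear cap of its own, was at -0.09 ± 0.40 (2498 to 2669), and Psme1 minus Psme3 was -1.08 (-1.64 to -0.51). Psme4, another activator, was at -0.03 ± 0.25, and both came above 0 under some scalings (0.22 and 0.28 at the highest). Psme2, the partner of Psme1, was not analysed here.

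**Figure D3:**
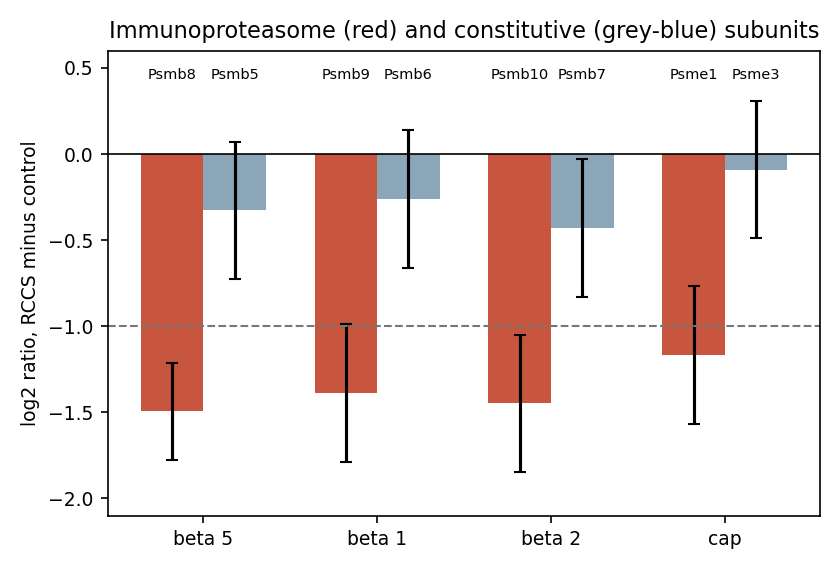
Log2 ratio, RCCS minus control, of the immunoproteasome catalytic subunits and the Psme1 cap subunit beside their constitutive counterparts or relative, with 95% half-widths from spot error and a dashed line at 2-fold lower. The 4 interferon-inducible subunits lie between -1.49 and -1.17 and the other 4 between -0.43 and -0.09.

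The Psmb8 window, chr17:34197945-34198194 on the plus strand (RefSeq, GRCm38.p6), is shown because it was the only one of the 9 members with a window to hold the gamma-activated site letters, which 7.02% of all windows hold.
Psmb8: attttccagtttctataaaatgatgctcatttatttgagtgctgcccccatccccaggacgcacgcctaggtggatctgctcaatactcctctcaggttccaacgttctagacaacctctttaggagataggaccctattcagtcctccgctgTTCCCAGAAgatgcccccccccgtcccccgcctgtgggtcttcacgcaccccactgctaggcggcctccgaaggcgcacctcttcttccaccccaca
The capitals read TTCCCAGAA and are 1 site, since the letters TTCNNNGAA read the same on both strands. The windows of Psmb10, on chromosome 8, and Psme1, on chromosome 14, held none of the 5 motifs. Of the constitutive counterparts, the Psmb5 window held 1 TGACG, and the Psmb6 window held 2 TGACG and 1 AANNGAAA, the motif fitted to the members. Psmb5 and Psmb6 had ratios of -0.33 and -0.26. No window was found for Psmb7.

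Other class I and class I-like heavy chains went in both directions. Of 18 found on the array 15 were measured, with a median of -0.73, 11 below 0, 5 past 2-fold on the lower side and 1 on the higher. The shares of all measured genes were 61.8% below 0, 3.76% at least 2-fold lower and 3.88% at least 2-fold higher. Lowest were 3 T-region genes, H2-T24 at -3.06 ± 0.28 (from 3390 to 460), H2-T22 at -2.09 ± 0.28 (11056 to 2942) and H2-T10 at -1.95 ± 0.40 (17349 to 5102). H2-T22 and H2-T10 encode molecules recognised by gamma delta T cells without a bound peptide. H2-Q8 (-1.63) and H2-Bl (-1.22) were the others at least 2-fold lower, and H2-Bl came to -0.74 at its nearest to 0 among the alternatives. H2-T24 minus H2-K1 was -2.15 (-2.51 to -1.78) and H2-T22 minus H2-K1 -1.18 (-1.54 to -0.81).

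By gene mean, the bright Q-region genes lay close to the classical chains. H2-Q1, H2-Q2, H2-Q5 and H2-Q7 stood between -0.74 and -0.68. H2-Q10 was at -0.61 ± 0.25 (59770 to 41560), and its 4 probes ran from -0.80 to -0.25. H2-T23, whose product shows leader peptides of other class I chains, was at -0.76 ± 0.40 (149927 to 100828). In the other direction, Mr1, which presents vitamin B metabolites, was at 3.07 ± 0.54, but its measured probe was dim on the control array (39.4 and 376) and the smallest value under any other processing was 1.88. H2-M3, which presents formylated bacterial peptides, was at 0.78 ± 0.28 (1684 to 3430). Fcgrt (0.54) and Hfe (0.50), class I-like chains of antibody recycling and iron sensing, were also above 0. Cd1d1, which presents lipids, gave 5.64 (control, not well above background) and 86.8 (RCCS), at least 3.15-fold higher. H2-T3 gave 46.8 (control) and 13.3 (RCCS, not well above background), at least 2.51-fold lower.

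Partners of the pathway that serve all cells lay nearer to the middle of the array. Of 14 measured, 11 were below 0 and 0 were at least 2-fold higher or lower, with a median of -0.34. Among all measured genes 61.8% were below 0, 3.76% at least 2-fold lower and 3.88% at least 2-fold higher. The share below 0 was 84.3% at control signals from 10000 to 50000, where some of these partners lie. The peptide-cutting enzymes Thop1 (-0.87 ± 0.40) and Blmh (-0.59 ± 0.28) were among the lowest. Calr, the chaperone calreticulin of the loading complex, was at -0.63 ± 0.28, Pdia3, its disulfide isomerase, at -0.33 ± 0.40 and Canx, calnexin, at -0.15 ± 0.23. Erap1, the aminopeptidase that trims peptides in the endoplasmic reticulum, went from 3841 to 2930 (-0.58 ± 0.40). Above 0 were 3 of the partners, with Lnpep, another aminopeptidase, highest at 0.58 ± 0.24 (710 to 1349) and its probes from 0.04 to 1.06. Of the genes named here for the loading complex, Tapbp and Tap1 alone were at least 2-fold lower.

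Regulators of class I genes and interferon receptors had a median of 0.01 over 10 measured genes, which ran from -0.07 to 0.32 over the ways of processing. Irf1, which binds class I and immunoproteasome promoters, was at -1.12 ± 0.28 (3234 to 1867) and came to -0.81 at its nearest to 0 among the alternatives. Irf8 was at 1.14 ± 0.28. The receptor genes stayed under 2-fold, with Ifngr1 at -0.45, Ifngr2 at -0.30, Ifnar2 at 0.31 and Ifnar1 at 0.53. Rfx5, Rfxap and Rfxank, parts of the factor that binds the X box of MHC promoters, had gene means between -0.14 and 0.07. Their probes were further apart, at -0.40 and 0.55 for Rfxap and at -0.21 and 0.25 for Rfx5, with 1 probe for Rfxank. Nlrc5, the class I transactivator, was not analysed here. For comparison, 15 other interferon-response genes, a list chosen with earlier results of these data known, were all below 0, against 61.8% of all measured genes. Of the 15, 13 were at least 2-fold lower, against 3.76%. Their median was -2.15, with a range from -4.27 (Oasl2) to -0.66 (Gbp2). Also among the lowest 8 were Isg15 (-4.23), Ifit3 (-3.56), Mx2 (-3.44), Irf7 (-3.12), Mx1 (-2.84), Ifit1 (-2.61) and Cxcl10 (-2.15). Mx1 was dim on the RCCS array and ran from -3.28 to -1.44 over the ways of processing. Tapbp, the lowest of the 10 class I pathway genes, lay above that median.

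**Figure D4:**
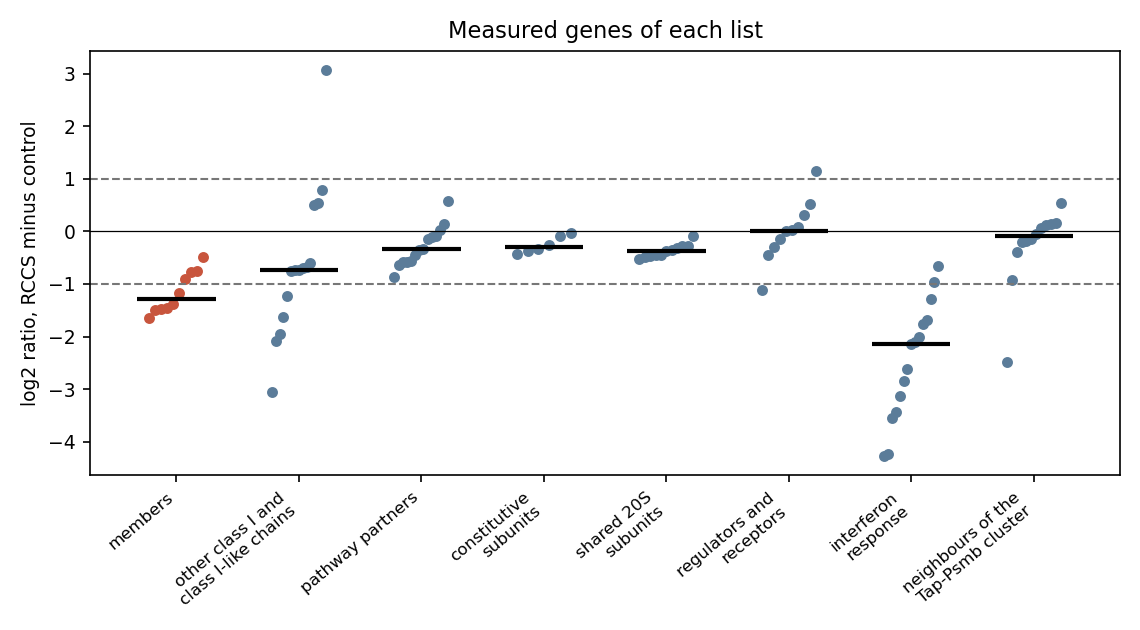
Log2 ratio, RCCS minus control, of every measured gene in the 10 class I pathway genes and 7 other lists (points), with the median of each list as a bar and dashed lines at 2-fold higher and lower. The median of the 10 genes, -1.28, lies between that of the interferon-response genes, -2.15, and those of the constitutive and shared proteasome subunits, -0.29 and -0.37. Single genes overlap between lists: Gbp2 (-0.66) lies within the range of the 10 genes, and Psma3 (-0.52) lies below Tap2 (-0.49).

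How far a single scaling factor moves the picture was examined on all genes. Scaled on 7 spike-in probes, the median of all genes moved up by 0.31, and 82.1% in place of 50.8% of the genes past 2-fold were higher ones. That share was 66.7% when scaled at the 75th percentile of measured probes (median moved by 0.14), 63.5% with loess (0.13) and 62.6% with normexp and quantile normalization. The 10 genes were still all below 0 under the spike-in scaling, 5 of them at least 2-fold lower against 1.63% of all genes. Tapbp, Psmb8, Tap1, Psmb10 and Psmb9 were at least 2-fold lower in each of the 12 ways of processing, the main one included. Psme1 was so in 8, and came to -0.85 at its nearest to 0. B2m, H2-K1, H2-D1 and Tap2 were under 2-fold in all 12, and their values nearest to 0 were -0.45, -0.56, -0.35 and -0.18.

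**Figure D5:**
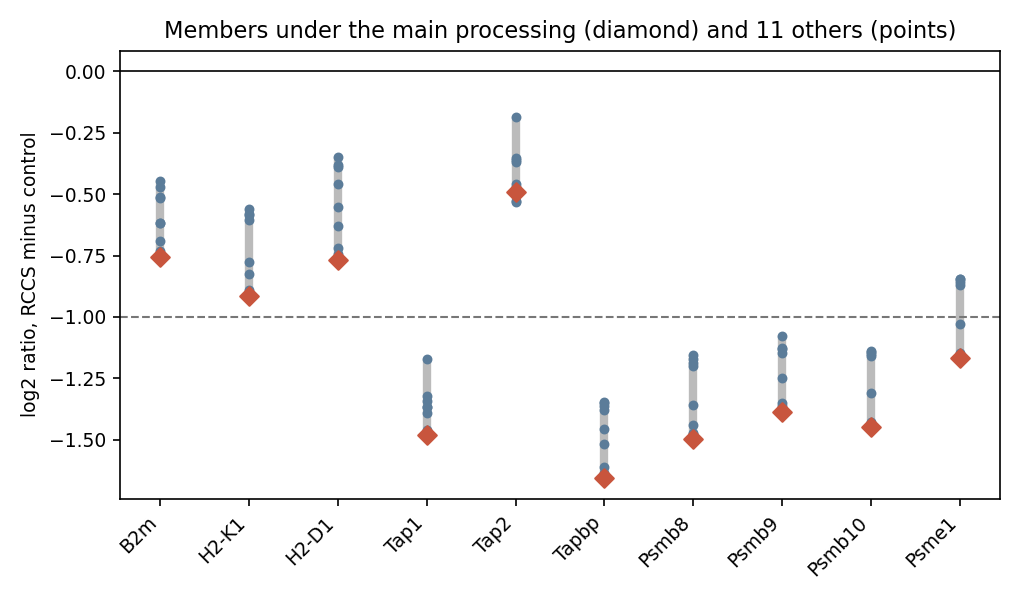
Log2 ratio, RCCS minus control, of the 10 genes under the main processing (diamond) and 11 alternatives (points), with the range as a grey bar and a dashed line at 2-fold lower. All points lie below 0, the main value is at or near the low end of each range, and only Psme1 has points on both sides of the dashed line.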

How the data were processed

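RNA of 2 samples, 1 control and 1 RCCS, was hybridised to 1-colour Agilent whole mouse genome arrays. The deposited spot intensities were made by the authors with Agilent Feature Extraction 9.5.3.1, per the file headers. Spatial and multiplicative detrending were on and the separate background correction was off for the processed signal, per the file headers. The authors also deposited a value table with a linear ratio for each probe. The median quotient of processed signal to table value was 849 (control) and 964 (RCCS); the lowest value is 0.01 and both columns have a median of 0.06. What the authors divided by is not stated.

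Spots flagged as outliers on either array were left out and the remaining spots of a probe averaged; 3 of 41174 probes had none left. Signals were divided by the array's 75th percentile and compared as log2 ratios, RCCS minus control. A probe was measured where at least 50% of its spots were well above background on both arrays, and a gene took the mean of its measured probes. Where 1 array only was well above background, a bound was taken against the higher of the dim signal and the lowest signal well above background there (24.2 for control, 21.2 for RCCS). Saturated spots among the members were 0. Accessions of 22950 probes matched RefSeq transcripts (GRCm38.p6) for symbols; members kept the file's names. Probe coordinates are left out because no source used here names their build. Steps were checked on simulated data. No test was made, since each group has 1 array, and no depth applies beyond the number of arrays.

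Alternatives tried were other scalings (median, measured probes' 75th percentile, spike-in probes), quantile and loess (span 0.3) normalization, normexp with an offset of 50 (limma 3.58.1 in R 4.3.3) with either scaling, the deposited table, 2 other filters, the brightest probe and thresholds of 1.5-fold and 3-fold. Named are all 10 members, up to 8 genes past 2-fold in each other list (at least 3 by size), and Psmb5, Psmb6, Psmb7 and Psme3; others were named for their role after their values were seen. One gene of the regulators list is not reported here and was left out of that list. The members and lists were chosen with earlier results of these data known, and the letters of 1 motif were changed after searches of the members' windows.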

Additional observations from a re-analysis of the deposited data

How the results depend on the processing

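The 10 genes stayed below 0 under all 11 alternatives. Their median log2 ratio ran from -1.28 to -0.97 and the median relative to all genes from -1.16 to -0.94. Some single genes moved by more than their spot-error half-width. B2m came from -0.76 to -0.45 (half-width 0.23), H2-K1 from -0.91 to -0.56 (0.23) and H2-D1 from -0.77 to -0.35 (0.40). Tapbp came from -1.66 to -1.35 (0.28) and Psmb8 from -1.49 to -1.16 (0.28). The other members stayed within their half-widths. The count at least 2-fold lower was 6 or 5; it was 5 with spike-in, quantile and loess scaling and with normexp followed by quantile normalization, where Psme1 came under 2-fold. At 3-fold the count was 1 (Tapbp), and at 1.5-fold it was 9. Close to these thresholds, 1.04% of all measured genes were at least 2.91-fold lower and 15.3% at least 1.49-fold lower. Using probes of RefSeq accessions alone, an alternative chosen after seeing the data, 9 genes were left, H2-K1 dropped out and the median was -1.39. Under normexp and quantile normalization H2-D1 came to -0.35 and H2-K1 to -0.58. The medians of the constitutive subunits and the neighbouring genes turn above 0 in some alternatives (highest 0.03 and 0.21), and that of the regulators below 0 in 4 of the 12 ways of processing (lowest -0.07). No paired analysis was possible because each group has 1 array, and for the same reason no array could be left out. Counts of all genes past 2-fold were 603 lower and 622 higher in the main processing; they were 261 and 1201 on spike-in scaling, 346 and 364 with normexp, 248 and 415 with normexp and quantile normalization, and 1804 and 1607 with no filter on dim probes. Signals near background limit the ratios of dim genes such as Mr1, Mx1, H2-Aa and H2-Ab1.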

Other observations

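Tap1, Tap2, Psmb8 and Psmb9 lie side by side within the MHC on chromosome 17, and the 8 protein-coding genes on each side of this cluster in the reference gene table (GRCm38.p6, used for the order of genes alone) are described here. Of these 16 neighbours 12 were measured, with a median log2 ratio of -0.09 (up to 0.21 under other scalings). Below 0 were 7, against 61.8% of all measured genes, and 1 gene was at least 2-fold lower, against 3.76%. That gene was H2-Ab1, of the class II complex, at -2.49 ± 0.42, dim on both arrays (172 and 30.9), with probes from -3.21 to -1.78 and a range of -3.21 to -1.34 over the ways of processing. H2-Aa, its partner chain, was at -0.93 ± 0.71 and near background (45.2 and 27.0), with a range of -2.05 to -0.17. H2-DMa, H2-DMb1 and H2-DMb2, which load peptides on class II molecules and lie on the Psmb9 side, were at 0.12, 0.14 and 0.53. Brd2, a ubiquitously expressed chromatin reader among them, was at -0.05 ± 0.40 (16893 and 18601).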
